A study of Fukomys damarensis and Heterocephalus glaber and Cavia porcellus with 28 samples.

Results

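The genes described here are the sirtuins and 3 enzymes that make NAD, phosphorylate it or methylate its precursor nicotinamide, compared across 4 rodent species in heart and liver. Members were taken by symbol: the rows of the heart and liver expression tables whose mouse Ensembl identifier maps to Sirt1 to Sirt7, Nampt, Nadk or Nnmt. Of these 10 genes, 8 were found in both tables, each of which has 13928 rows: Sirt1 (ENSMUSG00000020063), Sirt2 (ENSMUSG00000015149), Sirt3 (ENSMUSG00000025486), Sirt4 (ENSMUSG00000029524), Sirt5 (ENSMUSG00000054021), Sirt7 (ENSMUSG00000025138), Nampt (ENSMUSG00000020572) and Nadk (ENSMUSG00000029063). Sirt6 and Nnmt were not analysed here. The rule takes genes by name and uses no measured value, but the list of names was drawn up with earlier results of these data known.

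NAD is a carrier of electrons in energy metabolism and also a substrate that is consumed by signalling enzymes. Sirtuins use it to remove acetyl and other acyl groups from lysines of proteins, and release nicotinamide. Nampt turns that nicotinamide back toward NAD in the rate-limiting step of the salvage pathway, while Nadk phosphorylates NAD to NADP, the precursor of the NADPH used in biosynthesis and in defence against oxidants. Sirt1 and Sirt7 are mainly nuclear, Sirt7 being enriched in the nucleolus, Sirt2 is mainly cytosolic, and Sirt3, Sirt4 and Sirt5 are mitochondrial. Both mole-rats live underground and reach a high age for their size. Sirtuins and NAD supply are studied in ageing, in the response to low oxygen and in fuel use by heart and liver.

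The study sequenced ribosomal-RNA-depleted total RNA from frozen tissue of mouse, guinea pig, Damaraland mole-rat and naked mole-rat, to compare gene expression between the 2 mole-rats and the 2 outgroups. No animal carried a treatment or engineered allele according to the labels. In heart there were 3 naked mole-rat, 5 Damaraland mole-rat, 3 guinea pig and 3 mouse libraries, and liver had 4, 5, 3 and 2 in that order. The naked mole-rats were 13 to 17 months old, the Damaraland mole-rats 36 to 48 months, the guinea pigs 2.3 months and the mice 2 months, so that age and species cannot be told apart. All libraries came from males except 1 Damaraland mole-rat liver (replicate 4), and 10 of the 18 animals gave both tissues. For 1 of these animals the labels give different ages with its heart and its liver. The labels name separate animals, so the spread between replicates is a spread between animals. In such whole tissue, fewer cells of a type and less RNA per cell cannot be told apart.

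Levels are given as scaled reads, which are the reads recovered from the deposited values divided by the size factor of the library. They contain no correction for transcript length, so a gene was compared between species and its level was not set against that of another gene. How reads of each species were assigned to mouse identifiers is not given in the sources used here, and its part in any difference between species was not tested. Differences are given on the deposited log2-like scale, which compresses low values: a 2-fold change from 100 scaled reads moved the value by 0.679 in heart and 0.801 in liver, and more at higher levels. A difference was called where limma gave an adjusted p under 0.05 over all genes tested in the tissue (10667 in heart, 10887 in liver) and the difference was at least 1 on that scale. The libraries held from 4089633 to 26985779 recovered reads in heart and from 11220505 to 21467939 in liver. Naked mole-rat heart replicate 3 was the shallowest, with 12.91% of genes at 0 reads. Behind single values stood between 19 reads (Sirt4) and 4567 reads (Nampt) in heart, and between 45 (Sirt4) and 18836 (Nadk) in liver. Mitochondrially encoded genes took 0.003 to 0.028% of reads in the Damaraland mole-rat libraries of both tissues and 2.877% or more in every other library. Summed markers followed the tissue labels: 5 of 5 cardiomyocyte genes summed to 469 to 2882 scaled reads in liver and, in heart, to 411280 to 848258 in naked mole-rats, 1088604 to 1526779 in Damaraland mole-rats, 672264 to 768887 in guinea pigs and 911907 to 982555 in mice. None of the 5 hepatocyte genes (Alb, Ttr, Fgb, Apoa1 and Cps1) was at 0 in all heart libraries of a species. The hepatocyte sum in heart was 10955 to 31139 in the naked mole-rats, 3522 to 6902 in the Damaraland mole-rats, 3844 to 5520 in the guinea pigs and 349 to 1209 in the mice, against 878950 to 2896653 in the liver libraries.

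Of the 4 species, the naked mole-rat had the lowest Nampt and the highest Sirt7 in heart, and the Damaraland mole-rat had the lowest Sirt5 in heart and the highest Nadk in liver. In heart, 3 of 8 members were called between the mean of the mole-rats and the mean of the outgroups, against 23.4% of all genes tested. Sirt7 was higher in the mole-rats and Sirt5 and Nampt were lower. In liver, 1 of 8 members was called (Nadk, higher), against 28.1% of all genes tested. The shares of called members lay on both sides of those of all genes. The median difference of the members was -0.14 in heart and -0.13 in liver, beside -0.01 and 0.02 over all genes. The plots of the members by library show the levels behind these counts.

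**Figure D1:**
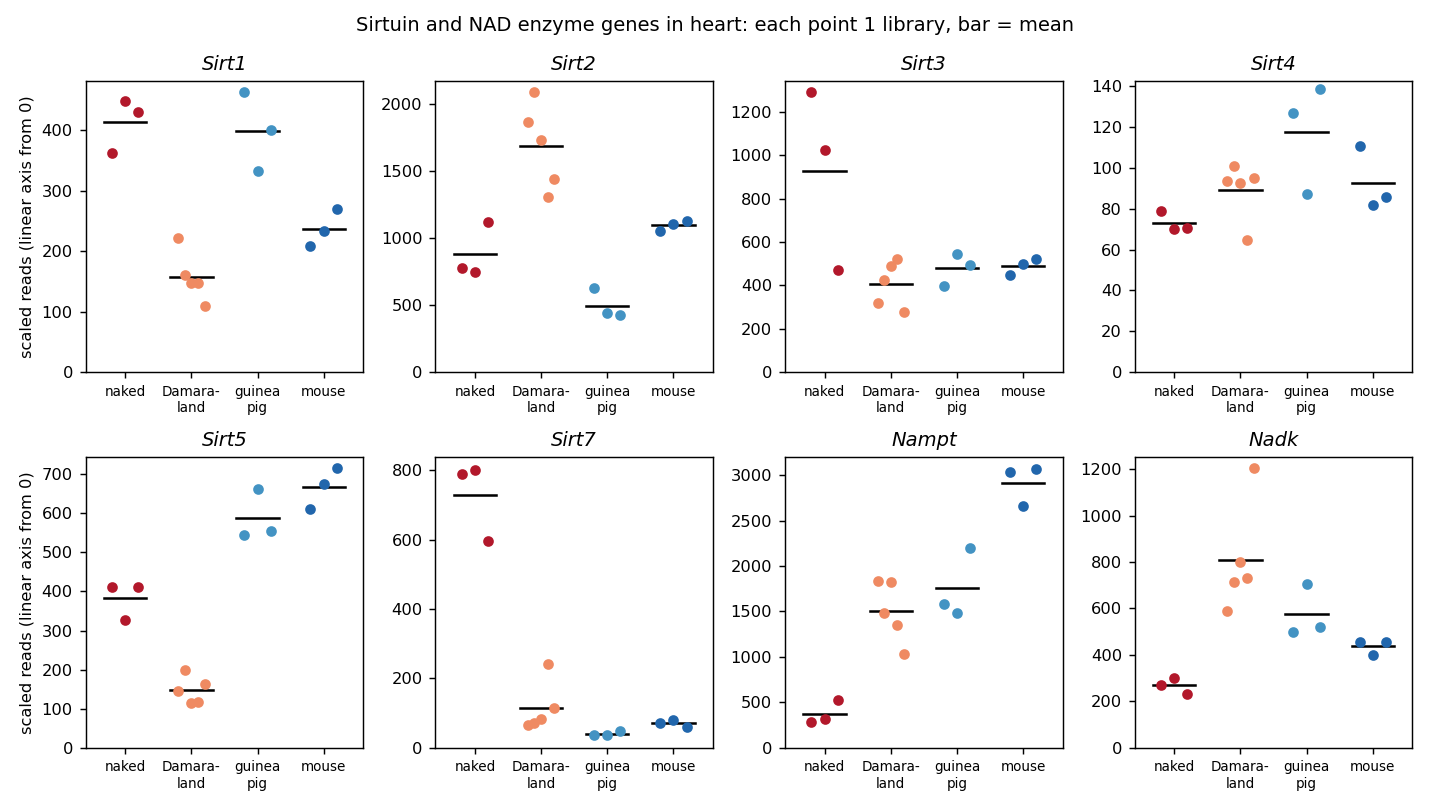
Scaled reads (recovered reads divided by the size factor, linear axis from 0) of the 8 members in each heart library, by species; each point is 1 library and each bar the species mean. Sirt7 lies between 596 and 800.4 in the 3 naked mole-rats and at or below 240.3 in all other heart libraries, while Nampt is at or below 522 in the naked mole-rats and at or above 1029 in the rest.

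**Figure D2:**
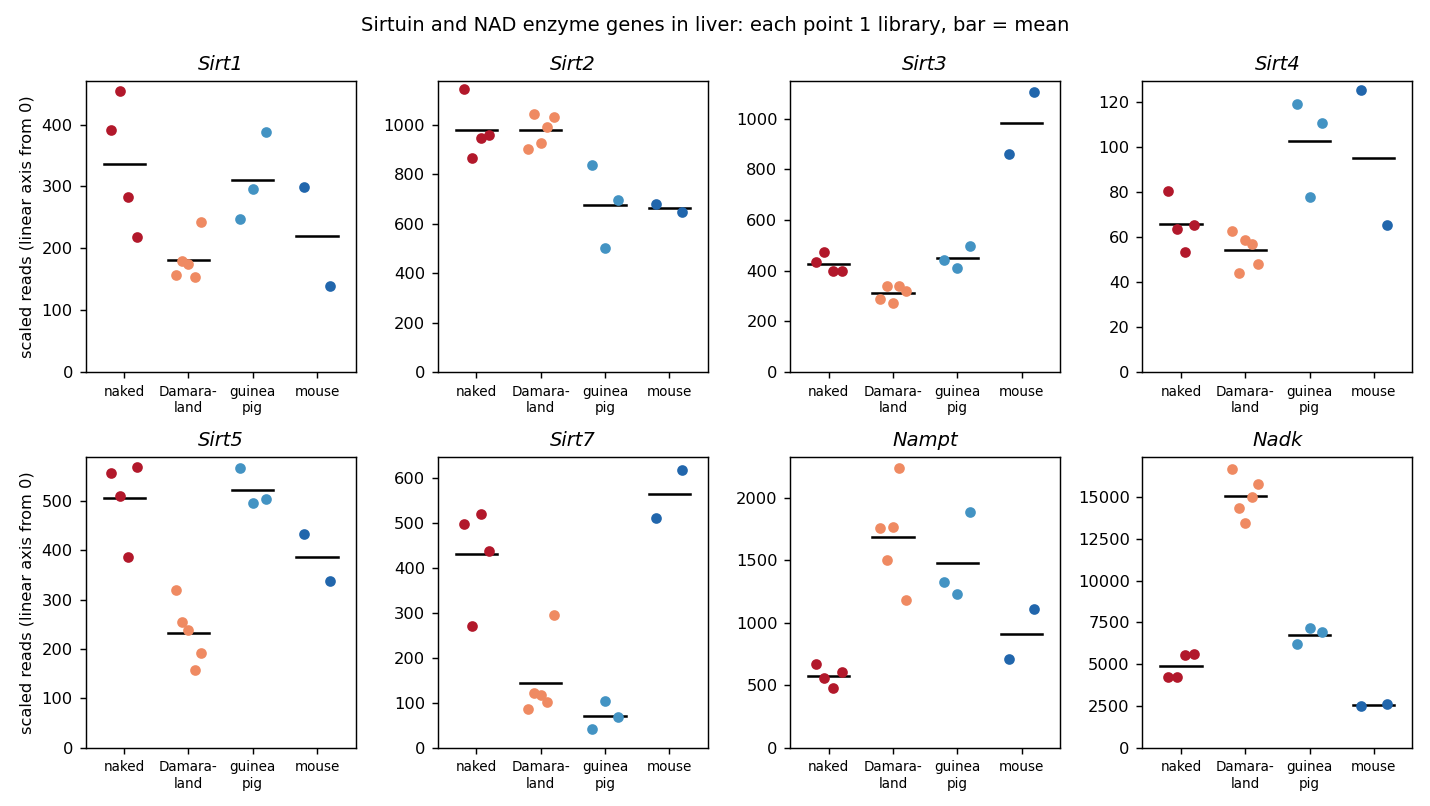
Scaled reads of the 8 members in each liver library, drawn as for heart, with 1 point for each library and a bar for the species mean. Nadk lies between 13476 and 16712 in the 5 Damaraland mole-rats and at or below 7145 in all other liver libraries, and Sirt7 in the 2 mice (511 and 618) is near its level in the naked mole-rats.

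Nampt, the salvage enzyme, was lowest in the naked mole-rat in both tissues. Nampt in heart had 288, 319.8 and 522 scaled reads in the 3 naked mole-rats (in the order of the replicates), 1840, 1481, 1821, 1349 and 1029 in the 5 Damaraland mole-rats, 1586, 1486 and 2193 in the 3 guinea pigs, and 3031, 2656 and 3064 in the 3 mice. Every naked mole-rat heart was below every heart of the other species, and every mouse heart was above all others. The heart means were 376 ± 127 (SD, n = 3) in naked mole-rats, 1504 ± 340.4 (SD, n = 5) in Damaraland mole-rats, 1755 ± 383 (SD, n = 3) in guinea pigs and 2917 ± 227 (SD, n = 3) in mice. The naked mole-rat mean was thus 3.99-fold, 4.66-fold and 7.75-fold below the other species in that order. The naked mole-rat differed from the Damaraland mole-rat by -1.81 ± 0.21 (SE, limma adjusted p = 1.21e-06), from the guinea pig by -2.03 ± 0.23 (SE, limma adjusted p = 1.23e-06) and from the mouse by -2.75 ± 0.23 (SE, limma adjusted p = 2.61e-08), and all were called. Of all genes, 4.14% of those tested in heart were called lower in the naked mole-rat than in each other species. The Damaraland mole-rat and the guinea pig did not differ beyond their spread (Damaraland mole-rat minus guinea pig -0.22 ± 0.21 SE, limma adjusted p = 0.365). The Damaraland mole-rat minus mouse difference was -0.94 ± 0.21 (SE, limma adjusted p = 0.000717), just under the size threshold. That difference passed it when 1 library was left out, at -1.02 without Damaraland mole-rat replicate 1, -1.02 without Damaraland mole-rat replicate 3 and -1.01 without mouse replicate 2. The mean of the mole-rats minus that of the outgroups was -1.49 ± 0.15 (SE, limma adjusted p = 3.13e-07) in heart and called, although the Damaraland mole-rat was called against neither outgroup. By median, the adipocyte and the leukocyte and macrophage marker sums were, like Nampt, lowest in naked mole-rat hearts and highest in mouse hearts. Unlike Nampt, each was higher in the Damaraland mole-rat than in the guinea pig. The hepatocyte and endothelial medians ran the other way, highest in the naked mole-rat and lowest in the mouse, and the remaining sums had other orders. The adipocyte sum (4 of 4 genes) was 922 to 1593 scaled reads in naked mole-rats, 3125 to 4696 in Damaraland mole-rats, 1476 to 3483 in guinea pigs and 5394 to 6540 in mice. The leukocyte and macrophage sum (5 of 6 genes) was 212 to 515 in naked mole-rats, 600 to 972 in Damaraland mole-rats, 518 to 784 in guinea pigs and 840 to 1119 in mice. Their part in the Nampt result was not tested. The highest of the naked mole-rat Nampt values came from the shallow replicate 3; without it the naked mole-rat mean was 304 scaled reads.

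In liver the same gene separated the species in another order. The liver libraries gave Nampt at 672, 557, 474 and 604 scaled reads in the 4 naked mole-rats, 1756, 1500, 1766, 2239 and 1185 in the 5 Damaraland mole-rats, 1323, 1228 and 1887 in the 3 guinea pigs, and 708 and 1107 in the 2 mice. All 4 naked mole-rat livers were below all livers of the other species, and the 2 mice lay between the naked mole-rats and the other 2 species without overlap. The naked mole-rat mean was 2.93-fold below that of the Damaraland mole-rat (naked minus Damaraland mole-rat -1.47 ± 0.19 SE, limma adjusted p = 2.77e-06) and 2.56-fold below that of the guinea pig (naked mole-rat minus guinea pig -1.29 ± 0.22 SE, limma adjusted p = 5.37e-05), both called. Against the mouse the ratio was 1.57-fold and the naked mole-rat minus mouse difference of -0.60 ± 0.24 (SE, limma adjusted p = 0.0417) was under the size threshold. The Damaraland mole-rat was above the mouse by 0.87 ± 0.24 (SE, limma adjusted p = 0.00399), a difference that passed the size threshold without mouse replicate 2 (1.18). Neighbours in the liver order that did not differ beyond their spread were again the Damaraland mole-rat and the guinea pig (Damaraland mole-rat minus guinea pig 0.18 ± 0.21 SE, limma adjusted p = 0.454).

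Nadk, the cytosolic NAD kinase that makes NADP, was highest in the Damaraland mole-rat in liver, and lowest in the naked mole-rat in heart. In liver, Nadk measured 4253, 4228, 5562 and 5637 scaled reads in the 4 naked mole-rats, 16712, 14338, 13476, 14986 and 15792 in the 5 Damaraland mole-rats, 6205, 7145 and 6916 in the 3 guinea pigs, and 2501 and 2632 in the 2 mice. The 5 Damaraland mole-rats stood above all other livers, the guinea pigs above the naked mole-rats, and the naked mole-rats above the 2 mice, with no overlap between any pair of species. The species means were 15061 ± 1255 (SD, n = 5), 6755 ± 490.2 (SD, n = 3), 4920 ± 785 (SD, n = 4) and 2566 ± 92.6 (SD, n = 2) in that order. The Damaraland mole-rat was 3.06-fold above the naked mole-rat, 2.23-fold above the guinea pig and 5.87-fold above the mouse. Its difference from the mouse was 2.53 ± 0.18 (SE, limma adjusted p = 1.78e-09) and from the guinea pig 1.15 ± 0.15 (SE, limma adjusted p = 4.55e-06), and naked minus Damaraland mole-rat was -1.62 ± 0.14 (SE, limma adjusted p = 2.29e-08), all called. In liver, 5.51% of genes tested were called higher in the Damaraland mole-rat than in each other species. The guinea pig was called above the mouse (guinea pig minus mouse 1.38 ± 0.19 SE, limma adjusted p = 9.97e-06). In liver naked mole-rat minus mouse was 0.92 ± 0.18 (SE, limma adjusted p = 0.000312) and naked mole-rat minus guinea pig -0.47 ± 0.16 (SE, limma adjusted p = 0.0175), both under the size threshold; tested against a difference of 0.5, the first was called (limma adjusted p = 0.0456). The mean of the mole-rats exceeded that of the outgroups by 1.03 ± 0.12 (SE, limma adjusted p = 7.40e-07), close to the size threshold: without naked mole-rat replicate 4 it was 0.998, just short of it. It also fell short with quantile normalisation (0.98), array weights (0.97) and log2(RPM + 1) (0.89). This average joins 1 mole-rat above both outgroups and 1 between them. The adipocyte marker sum in liver was likewise highest in the Damaraland mole-rats, at 752 to 3640 scaled reads against 21 to 211 in the other species, and its part in the Nadk result was not tested.

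For Nadk in heart the libraries held 272, 302 and 233 scaled reads in the 3 naked mole-rats, 588, 713, 801, 732 and 1205 in the 5 Damaraland mole-rats, 498, 705 and 519.5 in the 3 guinea pigs, and 456, 398 and 455 in the 3 mice. In heart the naked mole-rats had the lowest values, below every heart of the other species, and the Damaraland mole-rats overlapped the guinea pigs. The Damaraland mean was 3-fold the naked mole-rat mean, a called naked minus Damaraland difference of -1.33 ± 0.18 (SE, limma adjusted p = 1.09e-05). Naked mole-rat minus guinea pig was -0.91 ± 0.21 (SE, limma adjusted p = 0.00121) and naked mole-rat minus mouse -0.57 ± 0.21 (SE, limma adjusted p = 0.0223), neither of which was called. With the Damaraland mole-rat above and the naked mole-rat below the outgroups, the average of the mole-rats did not differ from that of the outgroups beyond its error (mole-rats minus outgroups -0.08 ± 0.14 SE, limma adjusted p = 0.638). Damaraland mole-rat minus guinea pig was 0.42 ± 0.18 (SE, limma adjusted p = 0.0589) and Damaraland mole-rat minus mouse 0.75 ± 0.18 (SE, limma adjusted p = 0.00189), also not called. On log2(RPM + 1) the Damaraland mole-rat minus mouse difference was 1.29 and called, and naked mole-rat minus guinea pig was called there (-1.27) and with voom (-1.03). RPM divides by all recovered reads, mitochondrially encoded ones included. Those took 22.43 to 25.586% in mouse hearts and 0.006 to 0.028% in Damaraland mole-rat hearts. Their part in the heart calls of Nadk and other members on this scale was not tested.

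Sirt7, the nucleolar sirtuin that acts on chromatin and ribosomal RNA synthesis, had the largest ratio between species means of any sirtuin measured, in heart and in liver. The heart values of Sirt7 were 788, 800.4 and 596 scaled reads in the 3 naked mole-rats, 65.5, 70.7, 82.5, 240.3 and 116 in the 5 Damaraland mole-rats, 35.7, 35.3 and 47.3 in the 3 guinea pigs, and 72.3, 80.9 and 59.4 in the 3 mice. The 3 naked mole-rat hearts were above all other hearts, while Damaraland mole-rats and mice overlapped and the guinea pigs were lowest. Mean levels were 728 ± 114 (SD, n = 3) in naked mole-rats, 115 ± 72.8 (SD, n = 5) in Damaraland mole-rats, 70.9 ± 10.8 (SD, n = 3) in mice and 39.4 ± 6.81 (SD, n = 3) in guinea pigs. The naked mole-rat mean was thus 6.34-fold, 10.28-fold and 18.47-fold the others in that order. The naked mole-rat differed by 2.18 ± 0.22 (SE, limma adjusted p = 3.48e-07) from the Damaraland mole-rat, by 2.51 ± 0.25 (SE, limma adjusted p = 2.02e-07) from the mouse and by 2.93 ± 0.25 (SE, limma adjusted p = 4.26e-08) from the guinea pig, all called. Of all genes tested in heart, 4.87% were called higher in the naked mole-rat than in each other species. The difference of the Damaraland mole-rat from the outgroups was not called, at 0.75 ± 0.22 (SE, limma adjusted p = 0.00812) against the guinea pig and 0.33 ± 0.22 (SE, limma adjusted p = 0.199) against the mouse. The average contrast of 1.63 ± 0.17 (SE, limma adjusted p = 2.68e-07), the largest of any member in heart, came with called differences from both outgroups in the naked mole-rat. For the Damaraland mole-rat, whose hearts were all above the guinea pig hearts (2.91-fold in the means), the difference from the guinea pig was called on other scales: 1.33 with voom on the recovered reads (limma adjusted p = 0.00912) and 1.10 on log2(RPM + 1) (limma adjusted p = 0.00703). The hepatocyte marker sum was also highest in the naked mole-rat hearts, at 10955 to 31139 scaled reads against 349 to 6902 in the other species, and its part in the Sirt7 result was not tested.

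In liver Sirt7 was high in the mouse as well as in the naked mole-rat. Sirt7 in liver had 497, 269, 518 and 436 scaled reads in the 4 naked mole-rats, 86.9, 121, 117, 102 and 295 in the 5 Damaraland mole-rats, 40.6, 104 and 69.1 in the 3 guinea pigs, and 511 and 618 in the 2 mice. The mice and 3 of the 4 naked mole-rats were above every Damaraland mole-rat and every guinea pig, and naked mole-rat replicate 2 was below Damaraland mole-rat replicate 5. Naked mole-rat and mouse did not differ beyond their spread (naked mole-rat minus mouse -0.40 ± 0.34 SE, limma adjusted p = 0.325). The naked mole-rat was called above the Damaraland mole-rat, 2.98-fold (naked minus Damaraland mole-rat 1.43 ± 0.27 SE, limma adjusted p = 0.000138), and above the guinea pig, 6.04-fold (naked mole-rat minus guinea pig 2.15 ± 0.30 SE, limma adjusted p = 7.85e-06). The mouse was likewise called above the Damaraland mole-rat, 3.9-fold (Damaraland mole-rat minus mouse -1.83 ± 0.33 SE, limma adjusted p = 0.000125), and above the guinea pig, 7.92-fold (guinea pig minus mouse -2.54 ± 0.36 SE, limma adjusted p = 1.22e-05). The average of mole-rats against outgroups, 0.16 ± 0.22 (SE, limma adjusted p = 0.543), was not called. These called differences of Sirt7 were called again in each of the 14 fits that left out 1 library: the heart difference between the mole-rats was then 2.08 to 2.39 and the liver difference 1.32 to 1.68.

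Sirt1, the nuclear deacetylase of several transcription factors and coactivators of metabolism, was low in the Damaraland mole-rat. The heart libraries gave Sirt1 at 363, 449 and 429.7 scaled reads in the 3 naked mole-rats, 222, 159.9, 147, 147 and 109 in the 5 Damaraland mole-rats, 463, 333 and 399.7 in the 3 guinea pigs, and 208, 233 and 269 in the 3 mice. The naked mole-rats and guinea pigs shared the high range in heart, the mice were below them, and the Damaraland mole-rats were lowest, with 1 of 5 above the lowest mouse. The Damaraland mole-rat mean was 2.64-fold below the naked mole-rat (naked minus Damaraland mole-rat 1.10 ± 0.16 SE, limma adjusted p = 1.83e-05) and 2.54-fold below the guinea pig (Damaraland mole-rat minus guinea pig -1.05 ± 0.16 SE, limma adjusted p = 2.81e-05), both called. The second call was lost by size without Damaraland mole-rat replicate 5 (-0.97) or guinea pig replicate 1 (-0.95). Naked mole-rat and guinea pig hearts did not differ beyond their spread (naked mole-rat minus guinea pig 0.05 ± 0.18 SE, limma adjusted p = 0.823). The differences from the mouse were 0.65 ± 0.18 (SE, limma adjusted p = 0.00462) for the naked mole-rat and -0.45 ± 0.16 (SE, limma adjusted p = 0.0213) for the Damaraland mole-rat. On log2(RPM + 1) the naked mole-rat minus mouse difference was 1.04 and called, as was guinea pig minus mouse (1.21, from 0.60 ± 0.18 (SE, limma adjusted p = 0.00875) on the deposited scale). In liver, Sirt1 measured 390.5, 455, 283 and 218 scaled reads in the 4 naked mole-rats, 157, 179, 175, 154 and 242 in the 5 Damaraland mole-rats, 248, 296 and 388 in the 3 guinea pigs, and 299.6 and 139 in the 2 mice. One mouse liver had the lowest value of all and the other lay within the range of the naked mole-rats and guinea pigs, and no liver difference was called. Naked minus Damaraland mole-rat was 0.74 ± 0.22 (SE, limma adjusted p = 0.00612) in liver. The naked mole-rat minus mouse difference was 0.57 ± 0.28 (SE, limma adjusted p = 0.0836); without mouse replicate 1 it was 1.04 (limma adjusted p = 0.0124) and called.

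Sirt2, the cytosolic deacetylase of tubulin and metabolic enzymes, was highest in the Damaraland mole-rat heart. For Sirt2 in heart the libraries held 778, 743 and 1115 scaled reads in the 3 naked mole-rats, 1860, 2085, 1728, 1301 and 1439 in the 5 Damaraland mole-rats, 624, 436 and 426 in the 3 guinea pigs, and 1049, 1106 and 1122 in the 3 mice. The Damaraland mole-rat hearts were above all others, the guinea pig hearts below all others, and the naked mole-rats overlapped the mice. The Damaraland mole-rat mean was 3.4-fold that of the guinea pig, a called difference of 1.62 ± 0.18 (SE, limma adjusted p = 7.96e-07). The mouse was 2.2-fold above the guinea pig (guinea pig minus mouse -1.05 ± 0.20 SE, limma adjusted p = 0.000287). That call was lost without guinea pig replicate 2 (-0.98) or guinea pig replicate 3 (-0.96), with quantile normalisation (-0.98), and on log2(RPM + 1), where it was -0.62. The naked mole-rat minus Damaraland mole-rat difference was -0.88 ± 0.18 (SE, limma adjusted p = 0.000461), not called, and became -1.05 and called without naked mole-rat replicate 3. It was also called with array weights (-1.13) and on log2(RPM + 1) (-1.11), and on the latter scale Damaraland mole-rat minus mouse was called too (1.06). The liver values of Sirt2 were 1146, 868, 946 and 961 scaled reads in the 4 naked mole-rats, 903, 1045, 929, 993 and 1034 in the 5 Damaraland mole-rats, 836, 502 and 696 in the 3 guinea pigs, and 679.5 and 648 in the 2 mice. In liver every mole-rat was above every outgroup library, as for 16.1% of all genes in either direction, and Sirt2 was the only 1 of 8 members with that separation. In liver naked minus Damaraland mole-rat was -0.01 ± 0.14 (SE, limma adjusted p = 0.974), and guinea pig minus mouse 0.00 ± 0.19 (SE, limma adjusted p = 0.999). The mole-rat average was 0.53 ± 0.12 (SE, limma adjusted p = 0.000845) above the outgroups in liver and 0.65 ± 0.14 (SE, limma adjusted p = 0.000428) in heart, both under the size threshold.

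Sirt3, the main deacetylase of mitochondrial matrix enzymes, differed mostly in the mouse liver. Sirt3 in liver had 433, 474, 399 and 399.9 scaled reads in the 4 naked mole-rats, 287, 340.3, 271, 338 and 321 in the 5 Damaraland mole-rats, 441, 409.8 and 497 in the 3 guinea pigs, and 859 and 1107 in the 2 mice. Both mouse livers were above all other livers, and the Damaraland mole-rats were below all others. The mouse mean was 2.3-fold that of the naked mole-rat (naked mole-rat minus mouse -1.13 ± 0.16 SE, limma adjusted p = 1.23e-05), 3.16-fold that of the Damaraland mole-rat (Damaraland mole-rat minus mouse -1.54 ± 0.16 SE, limma adjusted p = 2.22e-07) and 2.19-fold that of the guinea pig (guinea pig minus mouse -1.06 ± 0.17 SE, limma adjusted p = 5.37e-05), all called. The mole-rat minus outgroup average in liver was -0.81 ± 0.11 (SE, limma adjusted p = 3.96e-06), under the size threshold. In liver, 6.33% of genes tested were called higher in the mouse than in each other species. Mouse liver had only 2 libraries: without mouse replicate 2 the differences from the naked mole-rat and the guinea pig were -0.95 and -0.89, under the size threshold. Guinea pig minus mouse was also short of it with quantile normalisation (-0.95) and array weights (-0.98), and the mole-rat average was called when tested against a difference of 0.5 (limma adjusted p = 0.0185). The heart libraries gave Sirt3 at 1291, 1025 and 470.4 scaled reads in the 3 naked mole-rats, 316, 426, 487, 523 and 278 in the 5 Damaraland mole-rats, 398, 545 and 495 in the 3 guinea pigs, and 447, 496 and 521 in the 3 mice. In heart, naked mole-rat replicates 1 and 2 were above every heart of the other species and the shallow replicate 3 lay within the range of the other species. No heart difference of Sirt3 was called with all libraries; naked mole-rat minus Damaraland mole-rat was 0.99 ± 0.25 (SE, limma adjusted p = 0.00235). Naked mole-rat minus guinea pig was 0.76 ± 0.28 (SE, limma adjusted p = 0.0247) and naked mole-rat minus mouse 0.73 ± 0.28 (SE, limma adjusted p = 0.0278). Without naked mole-rat replicate 3 the naked mole-rat mean was 1158 scaled reads and the differences were called, at 1.38 from the Damaraland mole-rat, 1.15 from the guinea pig and 1.12 from the mouse. Leaving out Damaraland mole-rat replicate 2, 3 or 4 also brought the difference between the mole-rats past the threshold, at 1.01, 1.05 and 1.07. So did quantile normalisation (1.01), array weights (1.29) and voom (1.21). Array weights also brought the calls against the guinea pig (1.13) and the mouse (1.11), and log2(RPM + 1) that against the mouse (1.07).

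Sirt4, a mitochondrial sirtuin linked to glutamate dehydrogenase and to amino acid use, showed no called difference in either tissue. Its scaled reads in heart ran from 64.6 to 100.7 in the mole-rats and from 81.7 to 138.8 in the outgroups, and in liver from 44.15 to 80.5 and from 65.2 to 125.1. Mole-rats minus outgroups was -0.22 ± 0.11 (SE, limma adjusted p = 0.0807) in heart and -0.49 ± 0.14 (SE, limma adjusted p = 0.00475) in liver. At these levels the scale is compressed, and a 2-fold change from 50 scaled reads moves the value by 0.548 in heart and 0.688 in liver, so that the size threshold asks for more than a 2-fold change. The liver difference of Damaraland mole-rat minus guinea pig, -0.64 ± 0.18 (SE, limma adjusted p = 0.00476), was the largest of its 12 pairwise differences.

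Sirt5, the mitochondrial enzyme that removes succinyl, malonyl and glutaryl groups, was lowest in the Damaraland mole-rat in both tissues. In heart, Sirt5 measured 410.1, 327 and 411 scaled reads in the 3 naked mole-rats, 144, 199, 115, 116 and 164 in the 5 Damaraland mole-rats, 545, 663 and 553 in the 3 guinea pigs, and 612, 674 and 715 in the 3 mice. Every Damaraland mole-rat heart was below every other heart, and every naked mole-rat heart was below every guinea pig and mouse heart. Sirt5 was thus the only 1 of 8 members whose mole-rat hearts all lay on 1 side of the outgroup hearts, a pattern of 15.2% of all heart genes. The Damaraland mole-rat mean was 2.59-fold below the naked mole-rat (naked minus Damaraland mole-rat 1.06 ± 0.15 SE, limma adjusted p = 1.38e-05), 3.98-fold below the guinea pig (Damaraland mole-rat minus guinea pig -1.60 ± 0.15 SE, limma adjusted p = 1.25e-07) and 4.52-fold below the mouse (Damaraland mole-rat minus mouse -1.76 ± 0.15 SE, limma adjusted p = 3.21e-08), all called. The cardiomyocyte marker sum was highest in the Damaraland mole-rat hearts, and its part in the Sirt5 result was not tested. In heart 2.9% of genes were called lower in the Damaraland mole-rat than in each other species. Naked mole-rat minus guinea pig was -0.53 ± 0.17 (SE, limma adjusted p = 0.0123) and naked mole-rat minus mouse -0.70 ± 0.17 (SE, limma adjusted p = 0.00178), under the size threshold. The average of mole-rats minus outgroups was -1.15 ± 0.11 (SE, limma adjusted p = 1.74e-07) and called. For Sirt5 in liver the libraries held 556, 509.9, 385 and 569 scaled reads in the 4 naked mole-rats, 319.6, 255, 238, 157 and 191 in the 5 Damaraland mole-rats, 567, 496 and 503 in the 3 guinea pigs, and 433 and 338 in the 2 mice. In liver the Damaraland mole-rats were again below all other livers, while the naked mole-rats overlapped both outgroups. The Damaraland mole-rat was 2.18-fold below the naked mole-rat (naked minus Damaraland mole-rat 1.03 ± 0.17 SE, limma adjusted p = 5.03e-05) and 2.25-fold below the guinea pig (Damaraland mole-rat minus guinea pig -1.09 ± 0.19 SE, limma adjusted p = 7.26e-05), both called close to the size threshold. The first was 0.98, 0.97, 0.92 and 0.98 without naked mole-rat replicate 1, naked mole-rat replicate 4, Damaraland mole-rat replicate 4 and Damaraland mole-rat replicate 5, and 0.87 on log2(RPM + 1). The second was -0.98 without Damaraland mole-rat replicate 4. Damaraland mole-rat minus mouse was -0.68 ± 0.21 (SE, limma adjusted p = 0.0112) in liver, not called.

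Each mole-rat was also set against each outgroup, and it was counted how many members were called with 1 sign in all 4 such comparisons. The count was 0 with limma in either tissue, against 4.68% of all genes in heart and 6.29% in liver. At an unadjusted p under 0.05 without the size threshold, 1 member in each tissue met it (Sirt5 in heart, Sirt2 in liver), and voom on the recovered reads called 0 in each. The share of all genes under these 2 rules was not counted, so these counts have no share to be set against. The 2 mole-rats differed from each other in 5 of 8 members in heart, against 29.4% of all genes, and in 4 of 8 in liver, against 34.2%. In heart Sirt1, Sirt5 and Sirt7 were higher in the naked mole-rat and Nampt and Nadk lower; in liver Sirt5 and Sirt7 were higher and Nampt and Nadk lower. Between the naked mole-rat and the Damaraland mole-rat, every member called in liver was thus called with the same sign in heart. Of the pairs of a mole-rat with an outgroup, naked mole-rat and guinea pig differed in 2 of 8 members in heart (Sirt7, Nampt), against 33% of all genes, and in 2 in liver (Sirt7, Nampt), against 37.8%. Naked mole-rat and mouse differed in 2 members in heart (Sirt7, Nampt), against 38.2%, and in 1 in liver (Sirt3), against 41.2%. Damaraland mole-rat and guinea pig differed in 3 members in heart (Sirt1, Sirt2, Sirt5), against 29.7%, and in 2 in liver (Sirt5, Nadk), against 36.2%. Damaraland mole-rat and mouse differed in 1 member in heart (Sirt5), against 34.9%, and in 3 in liver (Sirt3, Sirt7, Nadk), against 39.2%. The outgroups differed from each other in 1 member in heart (Sirt2), against 32.1%, and in 3 in liver (Sirt3, Sirt7, Nadk), against 37.2%. The plot of differences by member sets these contrasts side by side.

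**Figure D3:**
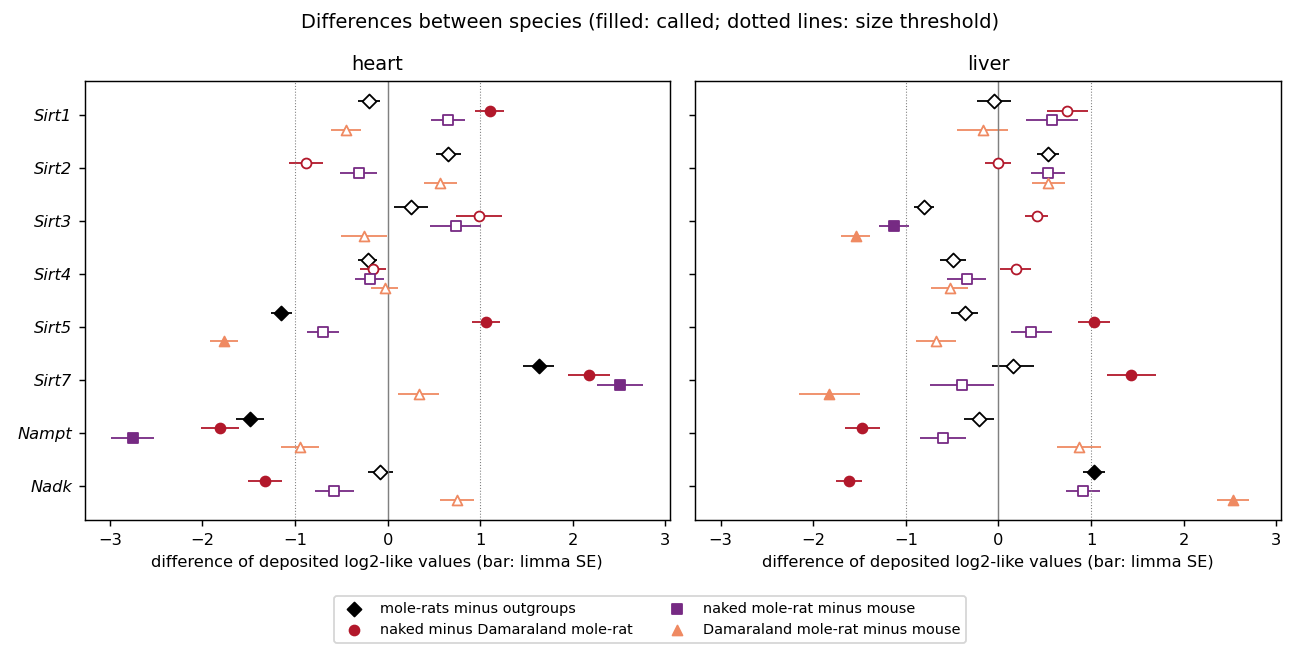
Differences in the log2-like value of the 8 members for 4 contrasts (mole-rats minus outgroups, naked minus Damaraland mole-rat, and each mole-rat minus mouse) in heart and liver, with bars of 1 limma standard error; filled points were called and dotted lines mark the size threshold of 1. Sirt7 and Nampt lie on opposite sides of 0 between the mole-rats in both tissues, at 2.18 and -1.81 in heart and 1.43 and -1.47 in liver.

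Because each ratio sets a gene against itself in the same species, the length of the gene model enters the liver and the heart level alike. The ratio of mean scaled reads in liver to those in heart was therefore also compared between species, as a description without a test, since the tissue tables were normalised separately and only the order of species within a gene can be read. For Sirt7 this ratio was 0.591 in the naked mole-rat, 1.258 in the Damaraland mole-rat, 1.807 in the guinea pig and 7.961 in the mouse. The 2 naked mole-rats with both tissues had 0.621 and 0.658 and the 1 such mouse 7.632, while the 4 Damaraland mole-rats ran from 0.752 to 3.579. The naked mole-rat and the mouse, which did not differ beyond their spread in liver Sirt7, were thus at opposite ends of this ratio. Sirt3 had the same ends, at 0.459 in the naked mole-rat and 2.015 in the mouse, with 0.767 and 0.937 in the Damaraland mole-rat and guinea pig. Nampt ran the other way, from 1.532 in the naked mole-rat through 1.123 and 0.843 in the Damaraland mole-rat and guinea pig to 0.311 in the mouse. Its animal values were 1.65 and 2.101 in naked mole-rats, 0.774 to 0.89 in guinea pigs and 0.417 in the mouse, while the Damaraland mole-rats (0.651 to 1.707) overlapped the naked mole-rats and the guinea pigs. The Nadk ratio was 18.283 and 18.642 in the naked and Damaraland mole-rats, 11.768 in the guinea pig and 5.881 in the mouse. The animal ranges of the 2 mole-rats for Nadk, 14.101 to 20.426 and 13.869 to 22.934, overlapped each other and the guinea pig's (8.805 to 14.353) and were above the mouse's 6.62. The Damaraland mole-rat had 3-fold the Nadk level of the naked mole-rat in heart and 3.06-fold in liver. Sirt5 was 1.319 and 1.573 in the mole-rats against 0.889 and 0.579 in guinea pig and mouse, whereas Sirt1, Sirt2 and Sirt4 ratios all lay between 0.583 and 1.368.

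**Figure D4:**
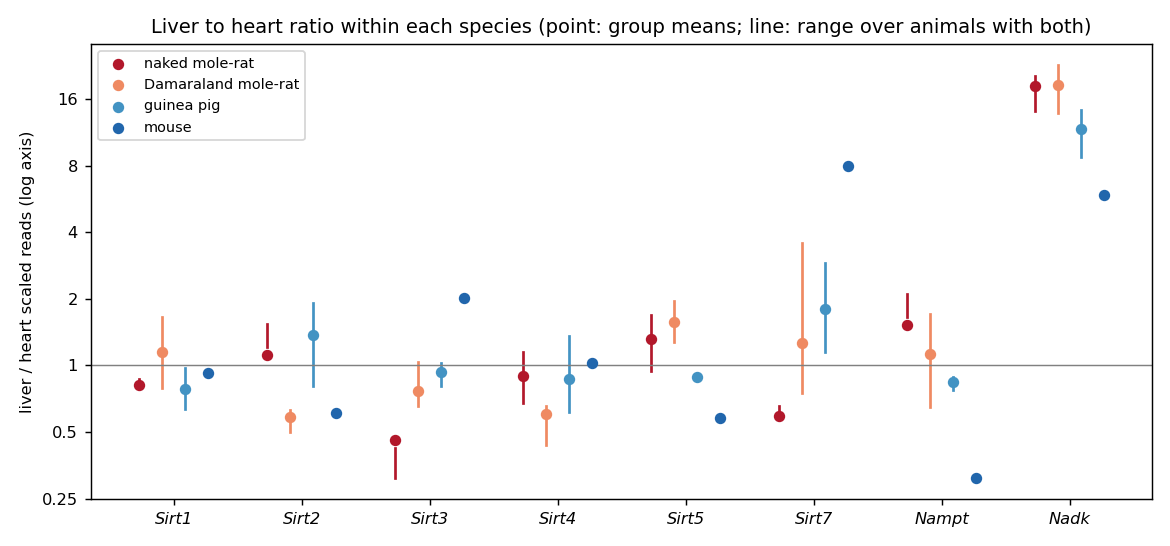
Ratio of liver to heart scaled reads for each member by species, on a log axis; points are ratios of the group means and lines span the animals with both tissues (1 mouse, 3 guinea pigs, 4 Damaraland and 2 naked mole-rats). Sirt7 spreads from 0.591 in the naked mole-rat to 7.961 in the mouse, Nampt from 0.311 in the mouse to 1.532 in the naked mole-rat.

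The rest of NAD metabolism was followed through 73 further genes in 8 lists, of which 64 were in the tables, 59 passed the filter on low values in heart and 62 in liver. In heart, 9 of 59 were called higher and 6 lower in the mole-rats than in the outgroups, and in liver 9 of 62 higher and 7 lower. These stand beside 10.8% higher and 12.6% lower of all genes in heart, and 15.1% and 13% in liver. Their median difference was 0.15 in heart and 0.02 in liver. Calls counted in the lists below refer to this contrast unless single species are named. None was called in all 4 mole-rat against outgroup comparisons in heart with limma, and 5 were in liver. In heart 12 met this at an unadjusted p under 0.05 without the size threshold and 4 with voom, rules for which the share of all genes was not counted. These 5 were Acmsd, Parp4 and Acss1, which were higher, and Parp2 and Mat2a, which were lower.

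Among the genes that make NAD, 2 of 7 in the salvage and Preiss-Handler list were called higher in the mole-rat hearts, with 0 lower. This list also holds Qprt, an enzyme of the route from tryptophan. Qprt, which turns quinolinate into nicotinic acid mononucleotide, was 1.58 ± 0.23 (SE, limma adjusted p = 1.27e-05) above the outgroups. Nadsyn1, the NAD synthetase that ends the Preiss-Handler route, was 1.34 ± 0.24 (SE, limma adjusted p = 0.000128) above them. Both were called higher in the Damaraland mole-rat than in each other species. Nadsyn1 had mean scaled reads of 656 in that species against 107.7, 106 and 34.7 in naked mole-rat, guinea pig and mouse, and Qprt had 282 against 17.5, 1.64 and 3.39. On the deposited scale the Qprt mean was 8.292 in the Damaraland mole-rat and 6.284, 5.644 and 5.773 in the others. Only the Damaraland mean was at least 1 above the value of 0 reads (5.3645). Qprt thus entered the test, and the count of 2, only through the group where it was high. In liver 0 of 6 genes of this list were called between the mole-rats and the outgroups with limma. For that contrast 3 of them had an unadjusted p under 0.05, and voom called 1. Nmnat3, Naprt, Nadsyn1 and Qprt had called differences between single species in liver. Of the route from tryptophan, Haao was called higher in the mole-rat hearts (1.19 ± 0.14 SE, limma adjusted p = 1.59e-06). Its mean was 188 scaled reads in the naked mole-rat, 36.8 in the Damaraland mole-rat, 15.1 in the guinea pig and 10.5 in the mouse. Haao makes the precursor of quinolinate and is a liver enzyme, and the hepatocyte marker sum of the heart libraries had its highest values in the naked mole-rat too. Its part in the Haao, Mat1a and Cps1 results in heart was not tested. Cps1 is itself a gene of that sum, so for Cps1 the sum is no separate observation. In liver, Acmsd, the enzyme that diverts the tryptophan route away from NAD, was higher by 3.30 ± 0.14 (SE, limma adjusted p = 2.95e-12). Acmsd averaged 9095 scaled reads in naked mole-rats, 2500 in Damaraland mole-rats, 657 in guinea pigs and 297 in mice. Tdo2, which opens the route, was called lower, with a difference of -1.71 ± 0.23 (SE, limma adjusted p = 5.31e-06). Tdo2 averaged 2126 scaled reads in naked mole-rats, 8603 in Damaraland mole-rats, 7749 in guinea pigs and 22910 in mice. The Damaraland mole-rat and the guinea pig did not differ beyond their spread (Damaraland mole-rat minus guinea pig 0.15 ± 0.30 SE, limma adjusted p = 0.673).

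The list of ADP-ribosyltransferases, which consume NAD, also holds Parg and Adprhl2, which remove ADP-ribose. Neither was called between the mole-rats and the outgroups in either tissue. Of its 15 genes, 2 were called higher and 4 lower in heart, and 2 higher and 1 lower in liver. Parp4, the vault particle ADP-ribosyltransferase, was higher by 2.25 ± 0.14 (SE, limma adjusted p = 4.22e-10) in heart and 2.24 ± 0.17 (SE, limma adjusted p = 4.11e-09) in liver. In scaled reads Parp4 averaged 2737, 1320, 148.6 and 693 in naked mole-rat, Damaraland mole-rat, guinea pig and mouse heart, and 2984, 964, 332 and 342 in liver. Parp2, a DNA damage responsive enzyme, was lower in liver (-1.61 ± 0.14 SE, limma adjusted p = 2.67e-08), with 36.9 and 37.8 scaled reads in the mole-rats against 197 and 164 in guinea pig and mouse. Parp8 had the largest negative difference of the list in heart, -1.58 ± 0.11 (SE, limma adjusted p = 2.26e-09). Its heart means were low, at 3.70 and 17.6 scaled reads in naked and Damaraland mole-rat against 72.7 and 182.4 in guinea pig and mouse. In liver its difference was -0.02 ± 0.15 (SE, limma adjusted p = 0.905). Sarm1, the 1 NAD glycohydrolase tested, was not called between the mole-rats and the outgroups in either tissue with limma. Its unadjusted p for that contrast was under 0.05 in heart but not in liver, and voom called it in both. Between single species limma did call Sarm1 in both tissues, for example guinea pig minus mouse at 2.07 in heart and 5.32 in liver.

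Of 7 NADP and NADPH enzymes, among them the further NAD kinase Nadk2, 1 was called higher in each tissue and 0 lower. In heart it was Pgd of the pentose phosphate pathway (1.25 ± 0.12 SE, limma adjusted p = 1.46e-07). In liver it was Me1, the cytosolic malic enzyme (2.33 ± 0.18 SE, limma adjusted p = 7.06e-09). The guinea pig liver mean of Me1 was 7.12 scaled reads, beside 772, 5091 and 4353 in naked mole-rat, Damaraland mole-rat and mouse. Of 4 NAD transport and repair genes, 0 were called between the mole-rats and the outgroups in heart with limma (4 at an unadjusted p under 0.05, 1 with voom). Between single species, Naxe was called higher in the naked mole-rat heart than in the Damaraland mole-rat (1.065), guinea pig (1.548) and mouse (1.124). Nudt13, a mitochondrial NADH hydrolase, was called higher in liver (1.25 ± 0.14 SE, limma adjusted p = 3.59e-07). Its liver means were 327.9, 182.5, 27.5 and 195.5 scaled reads in naked mole-rat, Damaraland mole-rat, guinea pig and mouse. The guinea pig was called lower than each other species, and neither mole-rat was called against the mouse (Damaraland mole-rat minus mouse -0.09 ± 0.20 SE, limma adjusted p = 0.716). Of 5 genes of nicotinamide clearance and the methyl donor cycle, Mat1a, the hepatic S-adenosylmethionine synthetase, was called higher in the mole-rat hearts (1.22 ± 0.23 SE, limma adjusted p = 0.000153). It had 482 scaled reads in the naked mole-rat and 30.3 to 67.4 in the other species. In liver 3 of 5 were called lower and 0 higher, led by Mat2a, its counterpart outside the liver, at -2.45 ± 0.22 (SE, limma adjusted p = 3.43e-08) (202, 540, 2980 and 1323 scaled reads in naked mole-rat, Damaraland mole-rat, guinea pig and mouse).

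Of the sirtuin regulators and substrates, 2 of 16 were called higher and 2 lower in heart, and 4 of 17 higher and 2 lower in liver. Cps1, the urea cycle enzyme that Sirt5 acts on, was higher in mole-rat heart by 1.94 ± 0.26 (SE, limma adjusted p = 4.94e-06), with 1253 scaled reads in the naked mole-rat and 73.7 to 207 elsewhere. Ubtf, a partner of Sirt7 in ribosomal RNA transcription, was called lower, at -1.30 ± 0.12 (SE, limma adjusted p = 5.30e-08) in heart and -1.59 ± 0.12 (SE, limma adjusted p = 3.82e-09) in liver. Ubtf was lowest in the Damaraland mole-rat in each tissue, at 207.7 scaled reads in heart beside 811 in the naked mole-rat, 1166 in the guinea pig and 1148 in the mouse. Acss2, a cytosolic acetyl-CoA synthetase controlled by Sirt1, was higher in mole-rat liver by 3.62 ± 0.18 (SE, limma adjusted p = 1.81e-11). Its liver means were 8082, 6269, 66.2 and 3202 scaled reads in naked mole-rat, Damaraland mole-rat, guinea pig and mouse. The guinea pig was called lower than each other species. Against the mouse, the naked mole-rat was called higher (1.28) and the Damaraland mole-rat was not called (0.98). Acss1, the mitochondrial counterpart of Acss2 controlled by Sirt3, was higher in mole-rat liver by 1.42 ± 0.22 (SE, limma adjusted p = 2.55e-05), with 101.6 and 90.2 scaled reads in the mole-rats against 15.0 and 34.7 in guinea pig and mouse.

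**Figure D5:**
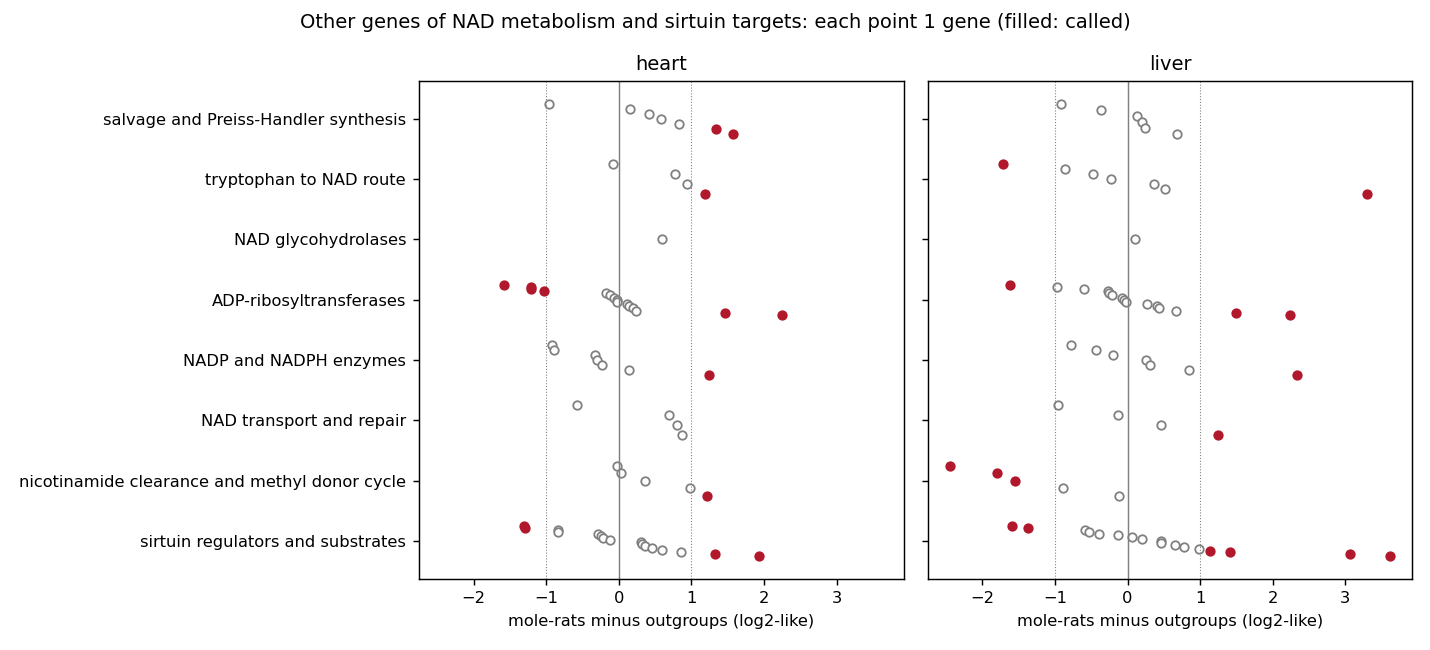
Difference of the mole-rats from the outgroups on the log2-like scale for each tested gene of the 8 further lists, in heart and liver. The members are not drawn. Each point is 1 gene, filled where called, and dotted lines mark the size threshold of 1. Called genes lie on both sides of 0 in heart (9 higher and 6 lower outside the members) and in liver (9 higher and 7 lower).

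For the member with the largest average difference in each tissue, the genes with the most similar species means were listed, by Euclidean distance between the 4 centred means over the 14 libraries of the tissue. Closest to Sirt7 in heart were Serpinc1 (distance 0.163), Disp3 (0.199) and Dnajc27 (0.21). Serpinc1 encodes antithrombin, a plasma protein made in liver, and its mean values were 9.38, 7.26, 6.35 and 6.72 in naked mole-rat, Damaraland mole-rat, guinea pig and mouse heart. Closest to Nadk in liver were Jrk (0.101), Fcnb (0.182) and Dsel (0.206), of which Jrk had mean values of 6.73, 8.32, 7.06 and 5.76 in the same order.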

How the data were processed

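The values analysed are the authors' deposited log2-like values, 1 table per tissue, made with a variance-stabilising transformation; cutadapt, Salmon 013.1, DESeq2 and the build GRCm38 are named in the submitters' processing notes without their roles. The index, annotation, strand setting and the matching of genes across species are not given in the sources used here, so reads of overlapping or near-identical genes cannot be told apart. Further columns of the tables (26) belong to other series and were not used. The value of 0 reads was 5.3645 in heart and 4.2893 in liver. Inverting the transformation gave whole reads (within 1e-06) for 100% of values, from which depth and scaled reads were taken.

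Genes with a mean of at least 1 above the value of 0 reads were tested per tissue with limma 3.58.1 in R 4.3.3, with a coefficient per species, a variance trend and Benjamini-Hochberg adjustment over all genes tested. The mole-rat contrast set the mean of both mole-rats against the mean of both outgroups. The fit was tested on simulated data. Alternatives covered the size threshold (none, or treat against 0.5), the filter, median centring, quantile normalisation, variance trend, array weights, voom and log2(RPM + 1) on recovered reads, only the groups compared, a block for the replicate number, and omission of each library in turn.

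The members and gene lists were chosen with earlier results of these data known. Named were all members and, from each other list, the called gene with the largest positive and the largest negative mole-rat contrast, any gene called in all 4 mole-rat against outgroup comparisons, and the 3 genes most like the leading member of each tissue; Sarm1 and other genes of lists with few calls were named after their values were seen. Replicate numbers of different species name different animals and do not pair them. Genes of the lists Nmrk2, Cd38, Bst1, Parp9, Parp10, Nnt, G6pdx, Slc25a51 and Aox3 were not analysed here.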

Additional observations from a re-analysis of the deposited data

Results flagged for a closer look

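Of 24 groups of 4 or 5 libraries, 2 held a library that stood apart from the others by Dixon's criterion, which chance gives in about 1 in 20 groups. Damaraland mole-rat heart replicate 4 had a Sirt4 value of 7.07 where the other 4 lay between 7.37 and 7.44 (64.6 scaled reads against 92.8 to 100.7). Damaraland mole-rat liver replicate 5 had a Sirt7 value of 8.38 where the others lay between 6.94 and 7.31 (295 scaled reads against 86.9 to 121).

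In 3 of 56 member contrasts, every library of a species was on opposite sides of the other species' libraries in heart and in liver. How many of all genes do so was not counted, so the 3 cannot be set against a share of all genes. The difference between the tissues was not tested. Nampt was -0.94 for Damaraland mole-rat minus mouse in heart and 0.87 in liver. For guinea pig minus mouse, Nampt was -0.72 in heart and 0.69 in liver. Nadk was -0.57 for naked mole-rat minus mouse in heart and 0.92 in liver. None of these 6 differences passed the size threshold with all libraries.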

How the results depend on the processing

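Of 2896 recomputed differences of single members, 25 lost a call, 72 gained one (31 of them apart from dropping the size threshold), and no called difference changed sign; 43 uncalled ones did. Without the size threshold, 5 members were called between mole-rats and outgroups in liver (1 with it), 1 member in each tissue was called in all 4 mole-rat against outgroup comparisons (0 with it), and 36 other NAD genes were called in heart and 38 in liver (15 and 16 with it). Over all genes, 7182 of 10667 in heart and 7407 of 10887 in liver were called between mole-rats and outgroups without the size threshold, against 2493 and 3056 with it. How many of all genes were called in all 4 comparisons without the size threshold was not counted. Testing against a difference of 0.5 gave 2 members in liver and 24 other NAD genes in heart, voom gave 25 of the latter and log2(RPM + 1) gave 23. Of all 10667 heart genes, these settings called 3286, 3841 and 3395 in that order. Testing against 0.5 called 3737 of all 10887 liver genes. The liver count of 1 member, Nadk, was 0 with quantile normalisation, array weights, log2(RPM + 1) or the replicate block, and 0 to 1 when libraries were left out in turn. Leaving out each library gave 5 to 7 members between the mole-rats in heart and 3 to 4 in liver, and 14 to 19 other NAD genes in heart and 16 to 18 in liver. On log2(RPM + 1) the median contrast of all liver genes was -0.10, against 0.02, and that of all heart genes 0.09, against -0.01.

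With the replicate block the Nadk liver contrast was 0.97 and no longer called. The block also took the calls of Sirt1 in heart (0.98 between the mole-rats, -0.93 for Damaraland mole-rat minus guinea pig) and of Sirt5 in liver (0.98 and -0.98), and added Sirt2 in heart between the mole-rats (-1.06). Same-numbered libraries did not deviate together (correlations of -0.261 to 0.301 in heart and -0.232 to 0.15 in liver), and 6 of 14 heart and 2 of 14 liver libraries were most like one of their own number. In heart the numbers 4 and 5 occurred only in Damaraland mole-rats, so the block took these libraries out of the species comparison. In liver the same holds for Damaraland mole-rat replicate 5. Other causes of these changes were not tested. Age, species and read assignment are shared limits, mouse liver has 2 libraries, and the low Sirt4 counts limit what could be seen for that gene.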

Other observations

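Some NAD genes outside the rule for named genes showed large species differences, described here after their values were seen. Sarm1, which cleaves NAD, averaged 48.3, 163, 146 and 2.38 scaled reads in naked mole-rat, Damaraland mole-rat, guinea pig and mouse heart, and 72.3, 393, 1218 and 4.53 in liver; the mouse was lowest in both tissues. Ido1, which opens the tryptophan route outside the liver, averaged 234 scaled reads in guinea pig heart and 0.216, 2.65 and 2.97 in naked mole-rat, Damaraland mole-rat and mouse heart, and was not tested because of its low mean. Nmnat3, the mitochondrial NMN adenylyltransferase, was -0.96 in heart and -0.91 in liver in the mole-rats relative to the outgroups (6.28e-05 and 1.45e-05 as limma adjusted p), short of the size threshold in both.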
